A study of Homo sapiens with 3 samples.

Results

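The small leucine-rich proteoglycans (SLRPs) are a family of secreted proteins of the extracellular matrix. The 10 members described here are EPYC, KERA, LUM and DCN on chromosome 12, OGN, OMD and ASPN on chromosome 9, FMOD and PRELP on chromosome 1, and BGN on chromosome X. They were chosen by name, out of 20007 protein-coding genes, and every peak that the authors' annotation gave to one of these names was taken. Where a gene had no such peak, the nearest peak to it in each list was used instead. The members lie in 4 places in the genome, and 3 of these are clusters of neighbouring members.

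The series mapped binding of MEIS1 by chromatin immunoprecipitation and sequencing (ChIP-seq) in CWR22Rv1 cells, an established human prostate carcinoma line. In LV-MEIS1 cells MEIS1 was expressed from a lentiviral vector under puromycin selection in cells with intact HOXB13. In HOXB13ko-LV-MEIS1 cells, Cas9 was first integrated and HOXB13 was disrupted with a guide RNA, knockout clones were recombined into a single pool, and the same MEIS1 vector was then introduced. The other sample was input chromatin, and it served as the control for both lines. The lines therefore share the parental cells and the MEIS1 vector, and differ in HOXB13, in integrated Cas9 and in passage through clones. The effects of these differences cannot be told apart here. The lists hold peaks only, so no value in them checks the knockout or the MEIS1 level. The study examined both by western blot, which was not analysed here.

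SLRP core proteins fold around leucine-rich repeats, and many carry chains of chondroitin, dermatan or keratan sulfate. Several bind collagen fibrils and set their diameter and spacing, and some also hold growth factors such as transforming growth factor beta or engage receptors on the cell surface. MEIS1 is a homeodomain factor of the TALE class that recognises the letters TGACA, and it can bind DNA together with HOX proteins, of which HOXB13 is characteristic of the prostate.

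The LV-MEIS1 list held 5968 peaks called from 202428594 tags, and the HOXB13ko-LV-MEIS1 list 2047 peaks called from 105763683 tags. The 3 immunoprecipitations of the first line and the 2 of the second had been pooled before calling, so each line gives 1 list, absence of a peak means absence from that list as deposited, there is no replicate error, and no test between the lines was possible. Intervals given below are 95% exact Poisson intervals on the reads at a summit and cover counting error only. Fold enrichment is the pileup of reads at the summit over the local background, with 1 added to both. Its median was 6.17 in the LV-MEIS1 list and 5.85 in the HOXB13ko-LV-MEIS1 list.

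Peaks were annotated to 3 of the 10 SLRP genes in LV-MEIS1 cells, namely EPYC, LUM and DCN, and all 3 are in the chromosome 12 cluster. Of all protein-coding genes, 14.7% had an annotated peak in that list. In HOXB13ko-LV-MEIS1 cells, 1 of the 10 had one, EPYC, against 5.64% of all genes. EPYC was thus the only member with a peak in each list, where 2.23% of all genes had one in each. Its peaks overlapped, so that 1 of the 4 LV-MEIS1 peaks of the family overlapped the other list, against 7.66% of all LV-MEIS1 peaks, and 1 of 1 did in the HOXB13ko-LV-MEIS1 list, against 22.3%. KERA, OGN, OMD, ASPN, FMOD, PRELP and BGN had no annotated peak in either list. With 10 genes, these counts were not tested against the rest.

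The chromosome 12 cluster holds 4 members within 220 kb, all on the minus strand, in the order EPYC, KERA, LUM and DCN. EPYC encodes epiphycan, a proteoglycan of growth plate cartilage. KERA encodes keratocan, a keratan sulfate proteoglycan of the cornea. LUM encodes lumican, which regulates collagen fibrils in the cornea and other connective tissue. DCN encodes decorin, which binds collagen and transforming growth factor beta and antagonises receptor tyrosine kinases. CCER1 was the only other protein-coding gene within 250 kb of the cluster, and beyond the DCN start the next protein-coding gene, BTG1, lay 957 kb away. The LV-MEIS1 list had 2 peaks inside the cluster and 4 within 250 kb of it, and the HOXB13ko-LV-MEIS1 list had 1.

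The hg38 sequence of the plus strand within 50 bp of each of the 5 summits is shown, because these peaks are the ones annotated to members and differ in how the MEIS1 word sits at the summit. Capitals mark TGACA or its reverse complement TGTCA. In the order given, the windows are chr12:91001465-91001565, chr12:91001511-91001611, chr12:91099571-91099671, chr12:91328115-91328215 and chr12:91422508-91422608.
EPYC, LV-MEIS1: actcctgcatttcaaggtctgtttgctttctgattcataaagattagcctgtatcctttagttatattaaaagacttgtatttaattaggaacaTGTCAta
EPYC, HOXB13ko-LV-MEIS1: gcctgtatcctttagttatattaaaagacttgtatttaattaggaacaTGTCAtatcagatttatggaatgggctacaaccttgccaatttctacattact
LUM, LV-MEIS1: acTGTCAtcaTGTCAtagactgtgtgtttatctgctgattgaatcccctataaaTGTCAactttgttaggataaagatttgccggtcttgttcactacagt
DCN nearer, LV-MEIS1: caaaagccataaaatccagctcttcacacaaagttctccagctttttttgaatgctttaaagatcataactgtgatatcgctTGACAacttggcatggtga
DCN farther, LV-MEIS1: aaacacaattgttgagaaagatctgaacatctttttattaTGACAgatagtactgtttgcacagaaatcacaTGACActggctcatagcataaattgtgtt

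The EPYC peak was the highest of the family in LV-MEIS1 cells. It lay at chr12:91001279-91001732, in intron 2 of 6 of EPYC (ENSG00000083782), with its summit 3.51 kb inside the gene from the start. At the summit 364 reads were piled up, which after scaling to the input is 70.3 (63.3 to 77.9), and the fold enrichment was 10.9. In HOXB13ko-LV-MEIS1 cells a narrower peak at chr12:91001465-91001684 had 92 reads, a pileup of 34.0 (27.4 to 41.7) and a fold enrichment of 5.39. The pileup intervals of the 2 lines did not overlap, but an interval from reads does not cover the spread between immunoprecipitations. Within its own list the peak stood at the 93.8 percentile of fold enrichment in LV-MEIS1 and at the 40.1 percentile in HOXB13ko-LV-MEIS1 cells, ranks that are not comparable between lists made up of largely different peaks.

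The summits of the EPYC peaks were 46 bp apart. The nearest TGACA lay 46 bp from the LV-MEIS1 summit, at the edge of the first window, and its centre coincided with the HOXB13ko-LV-MEIS1 summit, as the capitals in both sequences show. An ATAAA word, of the kind that HOX proteins of the posterior group recognise, lay 7 bp from that TGACA. The HOXB13ko-LV-MEIS1 pileup was 0.484 of the LV-MEIS1 pileup (exact interval 0.381 to 0.610). Over the 457 overlapping pairs of the lists, which hold only sites called in both, this ratio had a median of 0.713 and quartiles of 0.532 and 1.08, and EPYC stood at its 17.1 percentile.

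The LUM peak was the second highest of the family. It lay at chr12:91099432-91099761, 2.87 kb beyond the 3′ end of LUM (ENSG00000139329), in sequence that the annotation labels intergenic and an L2a element. It had 259 reads, a pileup of 50.0 (44.1 to 56.5) and a fold enrichment of 7.73 (6.84 to 8.71). Its window held 3 TGACA words, more than any other SLRP peak, with the nearest centred 6 bp from the summit. That word abuts an ATAAA with 0 bp between them, and 1 of the other copies reads TGACAG in full. The HOXB13ko-LV-MEIS1 list had no peak there, and its nearest was the EPYC peak, 110 kb from the LUM start.

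Both peaks annotated to DCN (ENSG00000011465) were upstream of the gene, at chr12:91328047-91328284 and chr12:91422421-91422641. Their summits lay 145 kb and 239 kb from the DCN start, which placed them at the 84.0 and 90.0 percentiles of distance in the LV-MEIS1 list. The nearer had 147 reads, a pileup of 28.4 (24.0 to 33.4) and a fold enrichment of 4.58 (3.89 to 5.35). The farther had 133 reads, a pileup of 25.7 (21.5 to 30.4) and a fold enrichment of 4.72 (3.98 to 5.56). These intervals overlap, so the DCN peaks could not be ranked against each other, and both lie below those of LUM and EPYC. DCN was among 277 of 2950 protein-coding genes (9.39%) whose LV-MEIS1 peaks were all beyond 100 kb of the start.

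The peak nearest to the DCN start was in fact the one annotated to LUM, 83.6 kb downstream, since the annotation gave each peak to a single gene. The start positions of that annotation differ somewhat from those used here. The LUM summit, for example, was 12144 bp from the LUM start there and 11873 bp here. The farther DCN peak held 2 TGACA words, the nearest 8 bp from the summit and reading TGACAG, with an ATAAA on the opposite strand 2 bp away. The nearer DCN peak held 1, with its centre 34 bp from the summit. TGACA and ATAAA at most 2 bp apart were present in the LUM peak and the farther DCN peak, and in 4.72% of all LV-MEIS1 peaks. These pairs were counted after the sequences had been seen, and the limit of 2 bp equals the gap at the farther DCN peak. The comparison is therefore no test of enrichment. All 4 LV-MEIS1 peaks of the family had TGACA within 50 bp, against 56.1% of LV-MEIS1 peaks, and the 1 HOXB13ko-LV-MEIS1 peak of the family had it, against 17.3% of that list. Within 25 bp the count fell to 2 of 4, against 41.3% of the list.

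**Figure D1:**
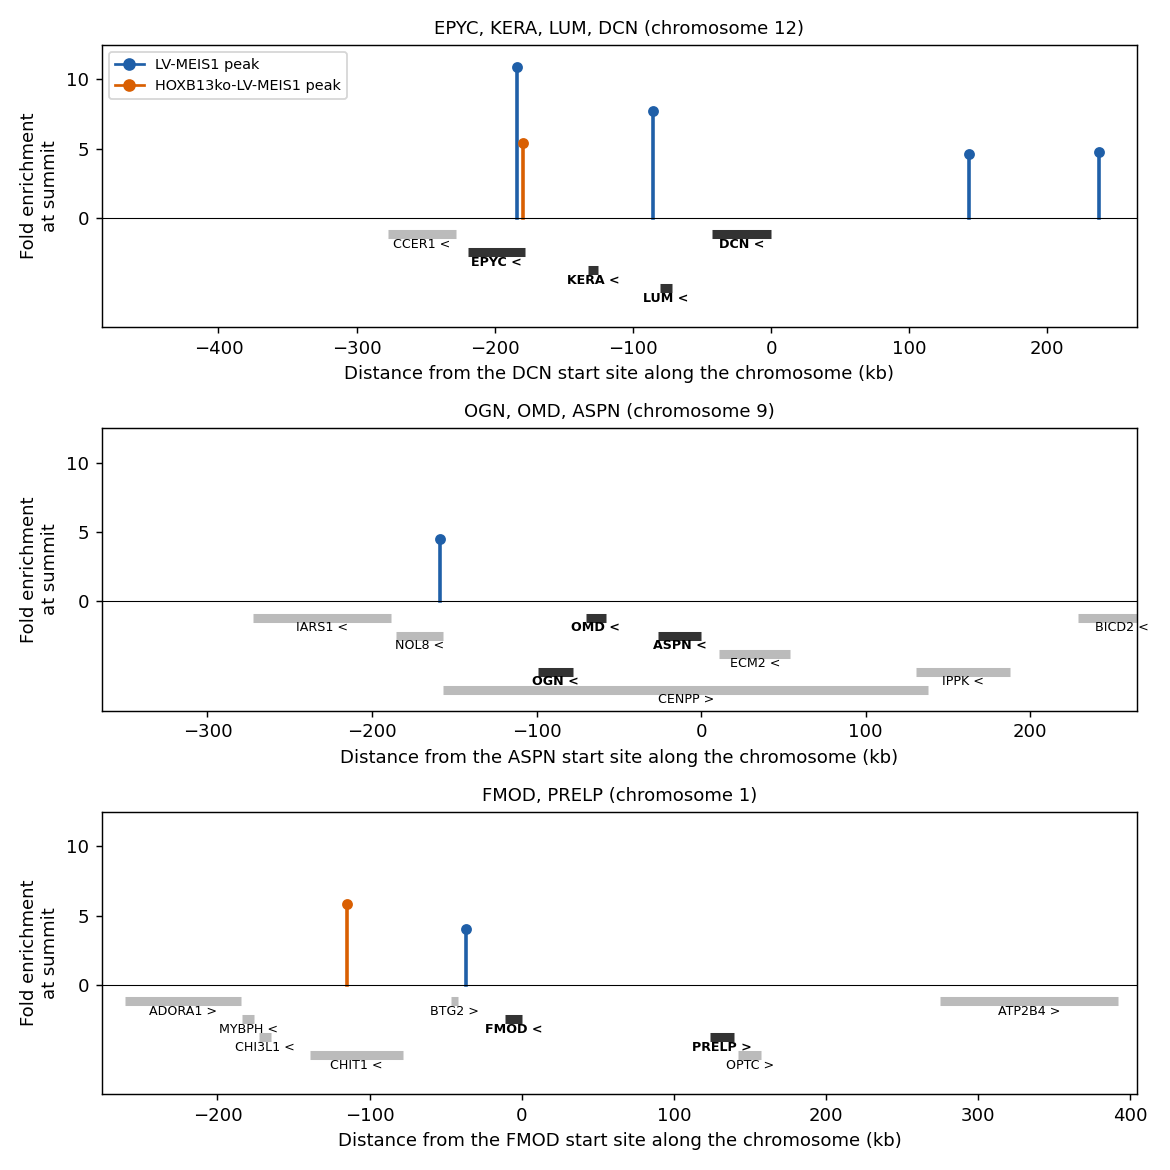
MEIS1 peaks around the 3 SLRP clusters. The x axis is the distance in kb from the start site of DCN, ASPN or FMOD along the chromosome, the stems give fold enrichment at the summit for LV-MEIS1 (blue) and HOXB13ko-LV-MEIS1 (orange), and bars below are genes (members black, others grey, arrowheads for strand); stems are shifted by 2 kb to the left or right so that overlapping peaks can be seen. The chromosome 12 cluster has 2 LV-MEIS1 peaks and 1 HOXB13ko-LV-MEIS1 peak inside it, and 4 and 1 within 250 kb. No peak of either list falls between the outer ends of the members on chromosomes 9 and 1. Within 250 kb, each of these has 1 LV-MEIS1 peak, and chromosome 1 also has 1 HOXB13ko-LV-MEIS1 peak.

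KERA, between EPYC and LUM, had no annotated peak, and its nearest were those of its neighbours. The LUM peak lay 41.6 kb from the KERA start in the LV-MEIS1 list, and the EPYC peak lay 56.5 kb from it in the HOXB13ko-LV-MEIS1 list. Input background at the 4 LV-MEIS1 peaks was 1.61 to 1.93 times the genome-wide level, at the 76.6 to 87.1 percentile of peaks. Its part in the calls was not tested.

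The lists were compared at the LUM and DCN peaks through the pileup that a call in HOXB13ko-LV-MEIS1 cells would have needed. Background at a site is the same in both lists, differing by at most 0.00121 at the 9 summits that they share, so the lowest passing pileup can be computed from it. At the LUM peak a pileup of 19 would have passed, which is 38.0% of the LV-MEIS1 pileup and a fold enrichment of 3.03. At the nearer DCN peak 19 would have passed (66.9%, fold enrichment 3.11), and at the farther one 17 (66.2%, fold enrichment 3.18). This level was far below the LV-MEIS1 interval at LUM and closer to it at both DCN peaks. It is not a limit on the summit itself, because a call also needs a stretch of 200 bp, and a shorter stretch above this level would have gone uncalled at any of them. The LUM peak was 330 bp wide and the DCN peaks 238 and 221 bp in LV-MEIS1 cells, and the EPYC peak, which was called in both, was 454 bp wide in LV-MEIS1 and 220 bp in HOXB13ko-LV-MEIS1 cells. The size of the fall at LUM and DCN therefore could not be given from these lists. Among the 5466 LV-MEIS1 peaks with no overlap in the other list, LUM stood at the 13.4 percentile of this share and the DCN peaks at the 79.2 and 77.7 percentiles.

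Of the 200 LV-MEIS1 peaks closest in fold enrichment to each, 16.0% overlapped a HOXB13ko-LV-MEIS1 peak for EPYC, 4.50% for LUM and 7.50% for each DCN peak.

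**Figure D2:**
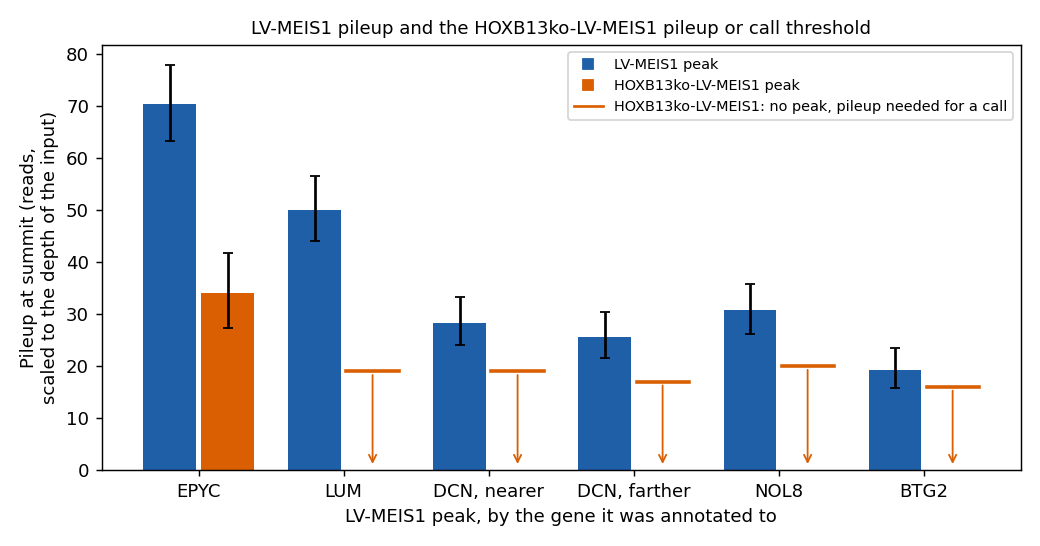
Pileup at the summit of each LV-MEIS1 peak in or near an SLRP cluster, in reads scaled to the input (blue bars, with 95% Poisson intervals), beside the HOXB13ko-LV-MEIS1 pileup (orange bar, same interval) or, where that list has no peak, the pileup a call would have needed over 200 bp (orange line, with an arrow for the range below it). EPYC is 70.3 against 34.0, LUM is 50.0 against a level of 19, and the DCN peaks, 28.4 and 25.7, stand closer to their levels of 19 and 17.

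The primers that the study lists for ChIP followed by quantitative PCR at DCN and LUM were placed on hg38 by exact match, and each matched once. Their sequences are shown because the amplicons differ in whether a called peak lies under them.
DCN Genomic 1 forward: gcacacgtgtttggtattctca
DCN Genomic 1 reverse: cctgatgcctgatgaagagtga
DCN Genomic 2 forward: attgggacattggtggtgtact
DCN Genomic 2 reverse: atgcttgccttgagcagaaaag
LUM Genomic forward: cagttaggtctgctccccac
LUM Genomic reverse: ctcccttcattcattgttcatcca

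The first DCN amplicon, chr12:91422421-91422499, lay wholly within the farther DCN peak, 59 bp from its summit. The second, chr12:91172368-91172467, lay within DCN itself, in an intron of the canonical transcript and over an exon of 1 of 20 transcripts. It had no peak in either list. The study shows MEIS1 tracks at a DCN region of the same number and reports binding at DCN by quantitative PCR. The missing call therefore does not show that MEIS1 was absent there. The nearest LV-MEIS1 peak to this amplicon was the LUM peak at 72.6 kb. The LUM amplicon, chr12:91099461-91099779, was 319 bp long, overlapped the LUM peak by 301 bp and covered its summit. The nearer DCN peak and the EPYC peak had no amplicon among these. By this assay the study reports that MEIS1 binding at DCN and LUM fell significantly when HOXB13 was deleted. The values of that assay were not analysed here.

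On chromosome 9, OGN, OMD and ASPN lie within 99.2 kb on the minus strand, inside the longer gene CENPP on the other strand. OGN encodes osteoglycin, OMD encodes osteomodulin of mineralised tissue, and ASPN encodes asporin, which binds collagen and transforming growth factor beta. No peak of either list was inside this cluster. The nearest LV-MEIS1 peak, at chr9:92325817-92326088, was at the shared promoter of NOL8 and CENPP, 57.2 kb from the cluster, with 159 reads and a fold enrichment of 4.53 (3.88 to 5.27). Its summit lay 78.7 kb from the OGN start, 98.5 kb from OMD and 157 kb from ASPN. In the HOXB13ko-LV-MEIS1 list the nearest summits were 474 kb, 494 kb and 502 kb away, in ROR2 for OGN and OMD and in FGD3 for ASPN. The NOL8 peak had TGACAG 11 bp from its summit and no ATAAA in the window. A call in HOXB13ko-LV-MEIS1 cells would have needed 65.1% of its pileup.

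On chromosome 1, FMOD and PRELP lie within 151 kb and are transcribed away from each other. FMOD encodes fibromodulin, a collagen-binding keratan sulfate proteoglycan, and PRELP encodes a heparin-binding protein of basement membranes. The LV-MEIS1 list had 1 peak within 250 kb, at chr1:203316736-203316942. It was annotated to BTG2, an antiproliferative gene, and lay 34.9 kb from the FMOD start and 159 kb from the PRELP start. Its 100 reads gave a pileup of 19.3 (15.7 to 23.5) and a fold enrichment of 4.06, at the 6.23 percentile of the list, and its window held neither TGACA nor ATAAA. A call in the other list would have needed 82.8% of its pileup.

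The HOXB13ko-LV-MEIS1 list had a different peak near FMOD, at chr1:203235020-203235250, in a MER11B long terminal repeat and annotated to CHIT1, a chitinase gene. It lay 117 kb from the FMOD start and 241 kb from the PRELP start, with 65 reads and a fold enrichment of 5.85 (4.57 to 7.39). The LV-MEIS1 list had no peak there, although a pileup of 14, or 58.3% of the HOXB13ko-LV-MEIS1 pileup, over 200 bp would have been called. It was the only place near the family where HOXB13ko-LV-MEIS1 cells had a peak and LV-MEIS1 cells had none.

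BGN on chromosome X encodes biglycan, which is related to decorin, binds collagen and signals through Toll-like receptors. It was the member farthest from any peak. The nearest was 2.54 Mb from its start in both lists, over a telomere-type repeat annotated to DDX11L16. Only a small share of genes lay farther from a LV-MEIS1 peak, BGN being at the 98.1 percentile of this distance, and it was at the 86.1 percentile in the HOXB13ko-LV-MEIS1 list.

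Across the family, the distance from the start to the nearest summit ran from 3.51 kb to 2.54 Mb in the LV-MEIS1 list, with a median of 81.2 kb against 147 kb for all protein-coding genes (quartiles 46.2 and 384 kb). In the HOXB13ko-LV-MEIS1 list the median was 211 kb against 461 kb (quartiles 134 and 1361 kb). A summit lay within 100 kb of the start for 7 of 10 members in LV-MEIS1 cells, where 40.6% of all genes had one, and for 2 of 10 in HOXB13ko-LV-MEIS1 cells, where 20.6% did. Members of a cluster share their nearest peaks, so these counts are not of independent genes: the LUM peak alone is nearest to KERA, LUM and DCN, and the NOL8 peak to OGN and OMD among the 7. Within 10 kb of the gene body the LV-MEIS1 count was 2 of 10, EPYC and LUM, against 19.6% of genes, and the HOXB13ko-LV-MEIS1 count was 1, against 8.29%. A summit within 10 kb of the start was found only for EPYC, in both lists, where 11.1% and 4.76% of all genes had one.

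**Figure D3:**
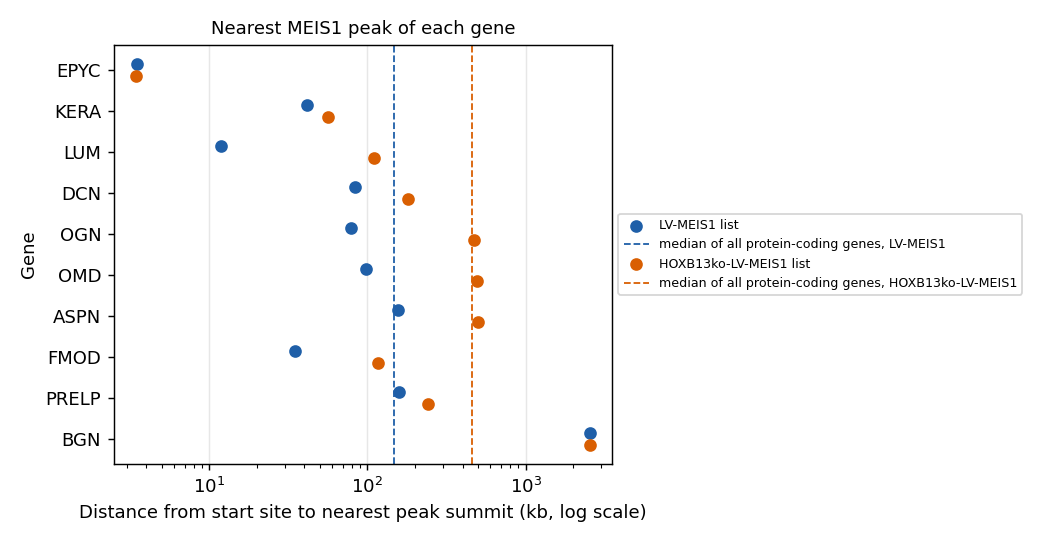
Distance in kb, on a log scale, from the start site of each SLRP gene to the nearest peak summit in the LV-MEIS1 list (blue) and the HOXB13ko-LV-MEIS1 list (orange). Dashed lines mark the medians of all protein-coding genes, 147 and 461 kb; EPYC is near 3.5 kb in both lists, and BGN at 2.54 Mb in both lies far beyond either line.

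No member had a peak at its promoter. RefSeq promoter sequences (GRCh38.p14, 250 bases before to 50 after the start) were found for 6 of the 10, and TGACA or TGTCA was in 1 of them, PRELP, against 38.9% of 35116 promoters. Sequences for DCN, KERA, LUM and OMD were not matched. Among these 10 genes, the study's table of genes differentially expressed between LV-MEIS1 and control cells names DCN and LUM and no others. The study reports both as increased in LV-MEIS1 cells. EPYC, which had the highest peak and the only one in both lists, is not named there, and expression was not analysed here. The study removed genes of low expression and listed only those past its limits of fold change and false discovery rate. Absence from that table therefore does not show that a gene was unchanged.

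Other SLRP and proteoglycan genes, genes of glycosaminoglycan chain synthesis, and genes of ligands and receptors of SLRPs were counted in the same way. Of 8 other SLRP genes, TSKU, encoding the secreted protein tsukushi, was the only one annotated in either list, with a LV-MEIS1 peak of fold enrichment 7.84 at 10.2 kb downstream of the start and a HOXB13ko-LV-MEIS1 peak of 6.22 at 5.66 kb upstream, which do not overlap. Of 29 other proteoglycan core proteins, 6 (20.7%) had a LV-MEIS1 peak and 2 (6.90%) a HOXB13ko-LV-MEIS1 peak. SPOCK2, a testican, had the highest at 10.1, followed by the glypican GPC6 at 8.31. These peaks lay 9.95 kb and 24.5 kb from the starts. In HOXB13ko-LV-MEIS1 cells the 2 were GPC5 at 6.40 and IMPG2 at 5.59, both over THE1 repeat elements. IMPG2 also had a LV-MEIS1 peak, of 3.27, which does not overlap the other, and was the 1 gene annotated in both lists. That LV-MEIS1 peak was only at the 1.26 percentile of fold enrichment in its list.

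Enzymes that build glycosaminoglycan chains had LV-MEIS1 peaks at 6 of 26 genes (23.1%) and a HOXB13ko-LV-MEIS1 peak at 1 (3.85%), and no gene had both. The chondroitin polymerising factor gene CHPF2 had the highest, a promoter peak of fold enrichment 11.0. The lowest of the 6 was 2.58, at the 0.0503 percentile of the LV-MEIS1 list. DSE and DSEL, which encode the epimerases that turn chondroitin into dermatan sulfate, had peaks of 5.91 at the promoter and of 7.21 at 238 kb from the start. Of 13 ligand and receptor genes of decorin, biglycan and lumican, 5 (38.5%) had a LV-MEIS1 peak and 1 (7.69%) a HOXB13ko-LV-MEIS1 peak. EGFR and MET, receptors that decorin antagonises, had LV-MEIS1 peaks of 6.66 at 31.0 kb upstream and 4.99 at 58.5 kb downstream of the start. ITGB1, an integrin subunit of collagen receptors, had a LV-MEIS1 peak of 5.66 at 22.3 kb upstream. TGFB2, a transforming growth factor beta ligand, had overlapping promoter peaks of 5.49 in LV-MEIS1 and 3.73 in HOXB13ko-LV-MEIS1 cells. Shares of these lists are to be read beside 14.7% and 5.64% of all genes; the lists were not tested.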

How the data were processed

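The 2 deposited lists give, for each peak, values that the authors obtained with MACS2 (version 2.1.2, per the file headers) on reads aligned to hg38, extended to 200 bp and called at a q-value of 0.01 against the shared input. The signal is the pileup of reads at the summit after the authors scaled each pool, by 0.193 for LV-MEIS1 and 0.370 for HOXB13ko-LV-MEIS1, to the 39102495 tags of input. The deposited fold enrichment is a ratio of pileup to local background. The p-value and the q-value are given by the authors as −log10 values. The authors' distance to a transcription start came from HOMER, with hg38 gene names. Per the labels the submitters also used Trimmomatic 0.38, Picard 2.18.10, HOMER 4.9.1, Bowtie2 and SAMtools.

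Reads at a summit were recovered by dividing pileup by the scale, and lay within 0.0258 of whole reads. Background was derived from pileup and fold enrichment, and a Poisson p computed from both matched the deposited −log10 p to 0.01 for 99.2% and 99.7% of peaks. The lowest passing pileup, which a call needs over 200 bp, is the smallest whose Poisson −log10 p reaches the lowest in the HOXB13ko-LV-MEIS1 list, 5.54 (5.14 in the LV-MEIS1 list). Gene positions are those of GENCODE release 44, in which 3755 of 4158 and 1454 of 1619 gene names were found. Overlap was 1 bp. Words were searched on both strands within 50 bp of summits. Scripts were tested on simulated data. Members and gene lists were chosen with earlier results of these data known. Peaks named are those annotated to a member or within 250 kb of a cluster, and for each gene list some of the 4 highest in a line. The LV-MEIS1 peak of IMPG2 was added because that gene is named for its other peak. The near pairs of TGACA and ATAAA were counted after the sequences had been seen. Alternatives were stricter q-value and fold enrichment limits, other distances, windows, words and overlaps. Software was matplotlib 3.10.9, pandas 2.3.3, pysam 0.24.0, scipy 1.17.1 and numpy 2.4.6 under Python 3.11.15.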

Additional observations from a re-analysis of the deposited data

How the results depend on the processing

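No paired analysis was possible because the immunoprecipitations of each line were pooled into 1 list, which also leaves no replicate to leave out. The smaller HOXB13ko-LV-MEIS1 pool and the small input limit what a missing peak can show. Counted by a summit within 100 kb rather than by annotation, members with a LV-MEIS1 peak went from 3 to 7 and with a HOXB13ko-LV-MEIS1 peak from 1 to 2. Requiring a fold enrichment of at least 5 took the LV-MEIS1 peaks from 4 to 2, dropping both DCN peaks, and the genes within 100 kb from 7 to 4. The genes with an annotated LV-MEIS1 peak then went from 3 to 2, without DCN. Counted by a peak within 10 kb of the gene body they were also 2, against 19.6% of all genes. With limits of 10 kb and 50 kb, 1 and 4 genes had a LV-MEIS1 summit, and 1 and 1 a HOXB13ko-LV-MEIS1 summit. With 250 kb the counts were 9 and 6. The share of all genes was not counted at 50 kb, at 250 kb or at a fold enrichment of at least 5. These member counts were therefore not set against the rest. Over all genes, the median distance was 147 kb (quartiles 46.2 and 384 kb) in the LV-MEIS1 list. It was 461 kb (quartiles 134 and 1361 kb) in the HOXB13ko-LV-MEIS1 list. In the LV-MEIS1 list most genes therefore also had a summit within 250 kb, and the 50 kb limit lay just above the lower quartile. In the HOXB13ko-LV-MEIS1 list 250 kb lay between the lower quartile and the median, and 50 kb below the lower quartile. TGACA was in 2 of 4 LV-MEIS1 peaks with a window of 25 bp, against 41.3% of that list. TGACAG was in 2 of 4 LV-MEIS1 peaks, against 30.5% of that list. It was in 0 of the HOXB13ko-LV-MEIS1 peaks of the family, against 8.13% of that list. With nothing added to pileup and background, fold enrichment was 12.6 for EPYC in LV-MEIS1 cells and 8.93 for LUM. These changes follow from the altered limits. The other alternatives left the values near those given.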

Other observations

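A further primer pair that the study lists as TGFBR1 Genomic matched hg38 once, at chr1:91559523-91559609. TGFBR1 is on chromosome 9, and the match lies 121 kb from TGFBR3, which encodes betaglycan, a proteoglycan receptor of transforming growth factor beta. For quantitative PCR the study's figure legend and methods name TGFBR3 as the locus. The study reports MEIS1 binding there that fell when HOXB13 was deleted. The nearest LV-MEIS1 peak to this amplicon was 765 kb away, annotated to GLMN, and the nearest HOXB13ko-LV-MEIS1 peak was 172 kb away, annotated to HFM1.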
